A study of Rattus norvegicus with 4 samples.

Results

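Mitochondrial biogenesis is the making of new mitochondria, and a small set of regulators is known to drive it. The coactivators PGC-1α (Ppargc1a) and PGC-1β (Ppargc1b) bind no DNA themselves and act through nuclear receptors and respiratory factors, among them ERRα (Esrra), NRF-1 (Nrf1), PPARα (Ppara) and PPARδ (Ppard). NRF-1 turns on Tfam, which enters mitochondria, packages their DNA and starts its transcription. AMPK, whose catalytic α subunits are encoded by Prkaa1 and Prkaa2, senses a fall in cellular energy and activates PGC-1α. UCP2 (Ucp2) is a carrier of the inner mitochondrial membrane that is known in the hippocampus for its effect on mitochondrial number and synapses. Exercise is a well-known inducer of Ppargc1a in muscle, so the question for these chips was whether running changed the transcripts of this set in the hippocampus.

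The set held these 10 genes, and its members were chosen by matching the accession on each noncontrol spot to a gene symbol. Of the 10 genes, 8 had a probe, each a single probe, out of 8899 genes named in this way and 41012 noncontrol probes. No accession on the chips resolved to Esrra or Nrf1, so both were not analysed here. Further probes for a member under an accession that did not resolve were not analysed here. The 8 probes made up 35 spots per chip, since the probes of Ppara, Ucp2 and Prkaa2 were each printed 10 times and the others once.

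The hippocampi came from male Wistar rats that were 10 weeks old and were kept for 4 weeks under one of 3 conditions. Sedentary rats (10 in the group) had no running, WR rats (8) ran voluntarily on a wheel without added resistance, and RWR rats (8) ran on a wheel whose resistance began at 4.5 g in the first week and was raised to 30% of body weight. RNA was pooled within each group and labelled with Cy3 or Cy5, with a total of 3 times the amount taken from each replicate. What a replicate was, and so how many rats stand behind a pool, is not given in the sources used here. Chips 1 and 2 compared the WR pool with the sedentary pool and chips 3 and 4 the RWR pool with the sedentary pool, with the dyes swapped within each pair, so that the running pool was in Cy5 on chips 1 and 3 and in Cy3 on chips 2 and 4. A pair is a technical repeat of 1 pool against 1 pool, which leaves 1 biological replicate per comparison, the spread between rats was not measured, and no test between conditions was made. Both comparisons share the sedentary group.

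Each chip held 43379 noncontrol spots, with median processed signals of 62.2 to 74.6 in Cy3 and 66.4 to 78.3 in Cy5, and no spot was saturated. Between 67.5% and 77.6% of spots in Cy3 and between 71.7% and 82.5% in Cy5 were well above background. Of 7 markers of hippocampal neurons, 3 had a named probe (Camk2a, Neurod2 and Wfs1), and these were well above background in every channel. Their median log2 ratios over sedentary were 0.07 in WR and 0.04 in RWR.

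The upstream windows of 4 measured members are shown. Tfam, Ppargc1a and Ppara are those with a full match to a searched motif, and Ucp2 had the highest RWR ratio of the set. Each window is the 250 bases before the annotated start in RefSeq on the GRCr8 assembly, 5′ to 3′ on the plus strand, which is the strand of all 4 genes. Capitals mark the match. The windows are chr20:17355123-17355372 for Tfam, chr14:63634058-63634307 for Ppargc1a, chr7:118712357-118712606 for Ppara and chr1:164251123-164251372 for Ucp2. That of Ppargc1a lies within the span of the gene, from 63073505 to 63729215, and that of Ppara within a gene that spans 118712261 to 118780723.
Tfam: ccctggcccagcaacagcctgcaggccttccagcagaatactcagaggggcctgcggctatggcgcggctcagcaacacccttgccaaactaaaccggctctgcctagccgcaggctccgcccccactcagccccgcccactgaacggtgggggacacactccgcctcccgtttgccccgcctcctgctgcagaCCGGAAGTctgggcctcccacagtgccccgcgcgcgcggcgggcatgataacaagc
Ppargc1a: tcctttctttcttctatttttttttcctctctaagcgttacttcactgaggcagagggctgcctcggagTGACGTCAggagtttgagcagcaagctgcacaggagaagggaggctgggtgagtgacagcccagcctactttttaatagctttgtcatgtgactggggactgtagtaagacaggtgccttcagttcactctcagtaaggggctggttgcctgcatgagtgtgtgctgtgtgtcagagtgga
Ppara: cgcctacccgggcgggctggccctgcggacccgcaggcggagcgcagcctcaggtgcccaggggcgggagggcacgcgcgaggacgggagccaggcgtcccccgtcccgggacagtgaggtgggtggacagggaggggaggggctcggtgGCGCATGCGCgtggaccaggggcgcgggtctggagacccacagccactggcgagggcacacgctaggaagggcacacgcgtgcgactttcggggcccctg
Ucp2: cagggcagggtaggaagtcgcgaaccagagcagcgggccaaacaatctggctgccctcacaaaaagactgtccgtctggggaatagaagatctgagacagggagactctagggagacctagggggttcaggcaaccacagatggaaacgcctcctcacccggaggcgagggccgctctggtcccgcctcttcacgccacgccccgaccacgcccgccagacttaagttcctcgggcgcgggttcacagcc

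The motifs named here were searched on both strands of the 33469 promoter windows of that table, and 9 of the 10 members had a window, with none for Ppard. The GABP motif CCGGAAGT, bound by the factor also called NRF-2, lay in 3.10% of all windows and in that of Tfam, starting 56 bases before the gene. The cAMP response element TGACGTCA lay in 1.59% of windows and in that of Ppargc1a, starting 181 bases before the start. The NRF1 motif GCGCANGCG lay in 5.09% of windows, among them that of Ppara, with overlapping matches on both strands starting 100 and 99 bases before the start, and that of Esrra. The ERR motif TCAAGGTCA, in 0.388% of all windows, and the E-box CACGTG, in 5.59%, lay in no member's window. GC content was 76% in the window of Ppara, 68.4% in that of Tfam, 62.8% in that of Ucp2 and 50.4% in that of Ppargc1a. The median over all windows was 51.2%. These matches are descriptions of the letters and were not tied to any ratio.

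No member passed the selection in either comparison. Up-regulation required a running over sedentary ratio above 1.5-fold on both chips of a pair, and down-regulation one below 0.75-fold on both. In either case each chip also had to give an error-model p-value under 0.01, a value the scanner software derives from that chip alone and not from a comparison of animals. In WR, 0 of 8 members were up-regulated, beside 0.00244% of all probes (1 of 41008), and 0 of 8 were down-regulated, beside 0.0293% (12). In RWR the counts were 0 of 8 up-regulated, beside 0.00975% of all probes (4 of 41007), and 0 of 8 down-regulated, beside 0.0488% (20). With so few probes selected over the whole chip, a count of 0 in 8 is near this background. The study reported larger counts of genes with the same fold cutoffs. Without the p-value filter, 87 probes were selected up and 138 down in WR, and 36 and 572 in RWR, with no member among them. The RNA came from whole hippocampi, so fewer cells of a type and less RNA per cell cannot be told apart.

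The mean ratio of a pair cancels a dye effect that is equal on both chips. On the log2 scale, it ranged over the 8 members from -0.22 to 0.31 in WR and from -0.08 to 0.22 in RWR. The median of the members was 0.0073 in WR and -0.0012 in RWR, beside medians of 0.0049 and -0.0019 over all probes. In each comparison 4 members lay above 0 and 4 below. A weaker rule, the same side of 0 on both chips, was met in WR by 1 member above 0 (Prkaa2) and by none below, beside 11.6% of all probes above and 10.7% below. In RWR it was met by 2 members above 0 (Ucp2 and Prkaa2) and by none below, beside 12.4% and 14.8% of all probes.

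**Figure D1:**
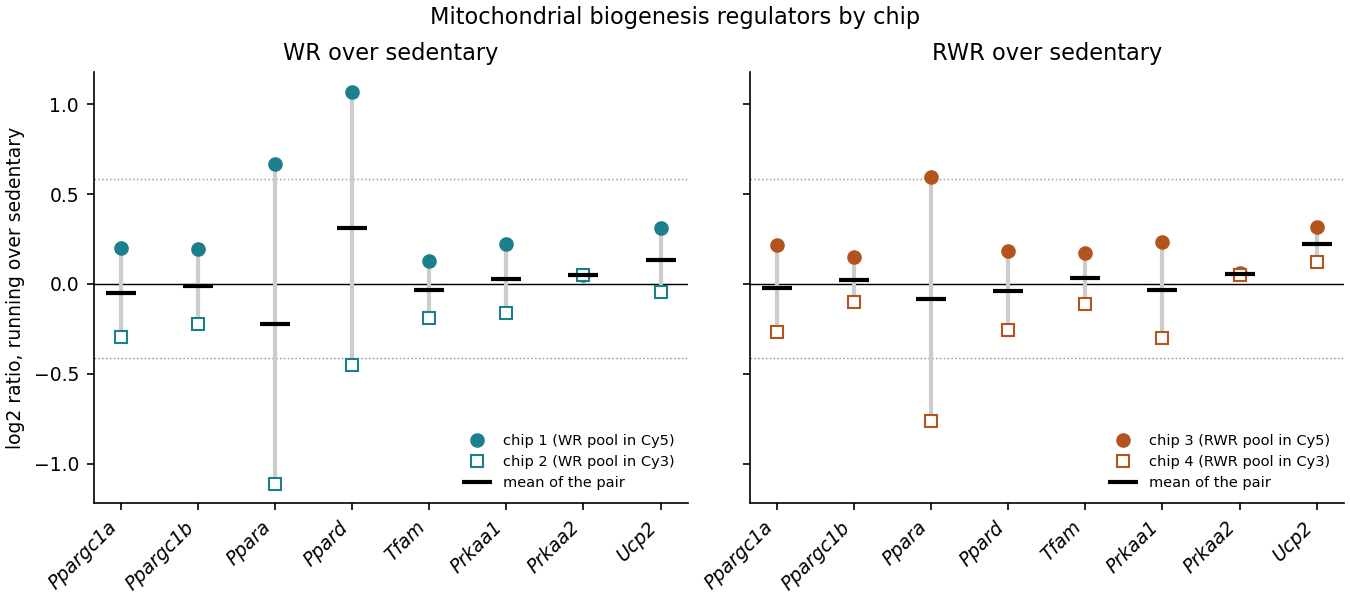
Log2 ratio of running over sedentary (vertical axis) for each of the 8 measured members in WR (left) and RWR (right); filled circles are the chip with the running pool in Cy5, open squares the chip with it in Cy3, black bars the mean of the pair, and dotted lines 1.5-fold and 0.75-fold. Circles lie above squares for every member but Prkaa2 in WR, and only Prkaa2 and, in RWR, Ucp2 have both symbols above 0.

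The coactivators came first in the order of the pathway. Ppargc1a (probe A_44_P305482) encodes PGC-1α, the inducible coactivator that exercise is known to raise in muscle. Its sedentary signal was 116.3 in Cy3 on chip 1 and 131.2 in Cy5 on chip 2, and its WR signal was 133.7 in Cy5 and 106.7 in Cy3. Whichever pool carried Cy5 was the higher. The WR over sedentary ratio of Ppargc1a was therefore 0.20 on chip 1 and -0.30 on chip 2 (error-model p-values of 0.364 and 0.170), with a mean of -0.05 ± 0.35 (SD over the 2 chips). RWR gave the same picture, with signals of 157.3 in RWR against 135.4 in sedentary on chip 3 and 107.1 against 128.8 on chip 4, and ratios of 0.22 and -0.27 (mean -0.03 ± 0.34). Both means are smaller than the gap between the chips of the pair.

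Ppargc1b (probe A_44_P116300) encodes PGC-1β, the more constant relative of PGC-1α. Its signals lay between 232.8 and 311.0 over the 8 channels. The lowest was WR in Cy3 and the highest WR in Cy5, so that the same pool marked both ends of the range. The WR ratio was 0.19 on chip 1 and -0.22 on chip 2 (mean -0.01 ± 0.29), and the RWR ratio was 0.15 on chip 3 and -0.10 on chip 4 (mean 0.02 ± 0.18).

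Ppara (probe A_42_P509766) encodes the receptor that turns on fatty acid oxidation. Its mean signal over 10 spots was 43.0 to 48.1 in Cy5 but 20.9 to 32.1 in Cy3, and the ranges of the dyes did not overlap, whichever pool they carried. All 10 spots were well above background in Cy5 on each chip, while in Cy3 this held for 6, 2, 9 and 5 spots on chips 1 to 4. Within Cy3, the sedentary signals were 29.1 on chip 1 and 32.1 on chip 3, the WR signal was 20.9 and the RWR signal 25.9. Within Cy5, the sedentary signals were 44.9 on chip 2 and 43.0 on chip 4, the WR signal was 46.0 and the RWR signal 48.1. In these signals, which are not scaled between chips, both running pools lay below both sedentary values in Cy3 and above both in Cy5. By percentile among all probes of a channel, this held in Cy3 but not in Cy5. The Cy5 percentiles were 44.3 and 41.5 in sedentary on chips 2 and 4, 43.5 in WR and 42.4 in RWR.

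The Ppara ratios were the widest of the set within a pair in both comparisons. In WR they were 0.67 on chip 1 and -1.11 on chip 2, with error-model p-values of 0.0714 and 0.000705. In RWR they were 0.59 on chip 3 and -0.76 on chip 4, with p-values of 0.0470 and 0.0173. All 10 spots were above 0 on chips 1 and 3, and all 10 were below 0 on chips 2 and 4. Single spots ran from 0.40 to 0.91 on chip 1 and from -1.67 to -0.76 on chip 2. Each chip passed a fold cutoff, but in the opposite direction to the other chip of its pair. The means were -0.22 ± 1.26 in WR and -0.08 ± 0.96 in RWR (SD over 2 chips). Chip 2 on its own would have passed the selection as down-regulated.

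Ppard (probe A_43_P11733) encodes the PPAR known in running muscle for oxidative fibres. It was printed once on each chip and was dim. Sedentary signals were 14.7 in Cy3 on chip 1, 26.4 in Cy5 on chip 2, 32.3 in Cy3 on chip 3 and 58.3 in Cy5 on chip 4. The WR signals were 30.8 in Cy5 on chip 1 and 19.3 in Cy3 on chip 2, and the RWR signals were 36.6 in Cy5 on chip 3 and 48.8 in Cy3 on chip 4. Sedentary on chip 1 and WR on chip 2 were not well above background, so each pool was measured on 1 of the 2 chips in the WR comparison.

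The WR ratio of Ppard was 1.07 on chip 1 and -0.45 on chip 2 (error-model p-values of 0.0379 and 0.228), with a mean of 0.31 ± 1.08. In RWR it was 0.18 and -0.26, with a mean of -0.04 ± 0.31. The WR mean is the highest of the set, yet it joins a ratio against a spot near background with a ratio of the opposite sign. The sedentary signal of Ppard in Cy5 was itself 2.21-fold higher on chip 4 than on chip 2, where over all probes the median log2 difference was 0.02. In Cy3 it was the higher on chip 3, but no fold is given, since it was not well above background on chip 1. Over the other 7 members the sedentary signals of the same dye differed between chips by -0.08 to 0.22 on the log2 scale.

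**Figure D2:**
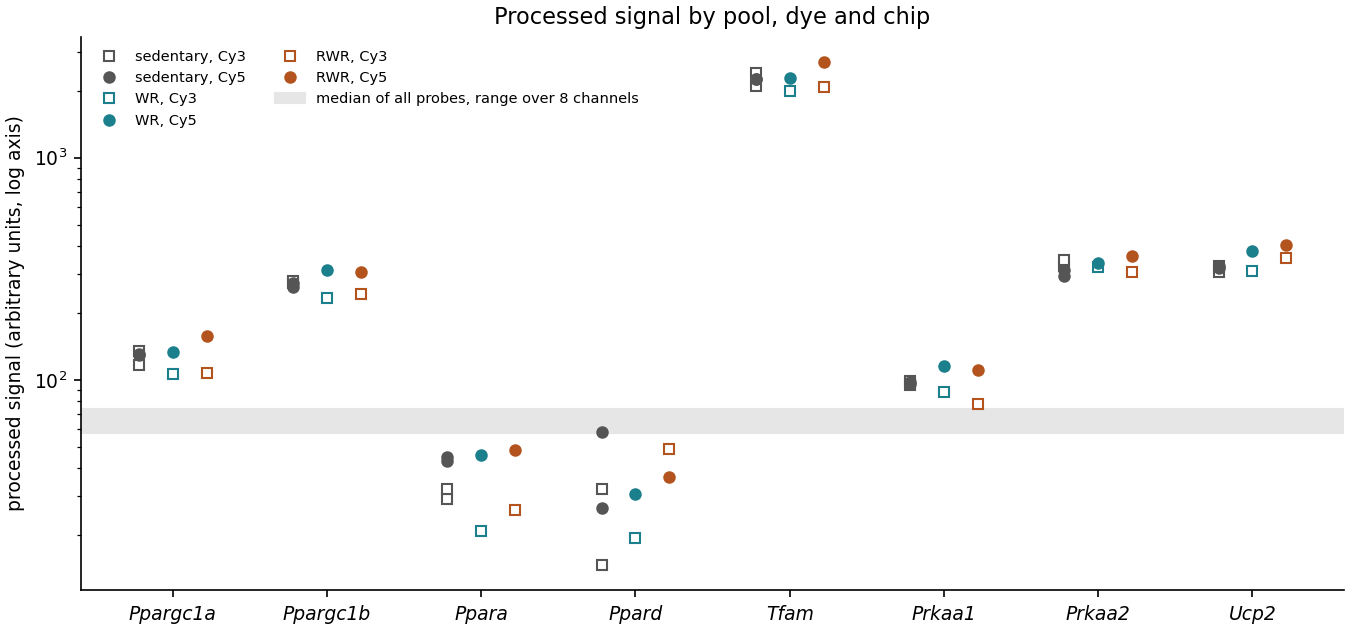
Processed signal (vertical log axis, arbitrary units) of each member by pool, with open squares for Cy3 and filled circles for Cy5; the grey band is the range over 8 channels of the median of all probes. Ppara and Ppard lie below the band in all or nearly all channels, Ppara is split by dye, and the 4 sedentary values of Ppard run from 14.7 to 58.3.

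Tfam (probe A_43_P15316), the target of these factors that carries the programme into the mitochondrion, had the signals 2103, 2272, 2396 and 2258 in the sedentary pool on chips 1 to 4. The WR signals were 2293 in Cy5 and 1989 in Cy3, on either side of the sedentary values of those chips. The RWR signals were 2698 in Cy5 and 2090 in Cy3, and again lay on either side. In WR its ratio was 0.12 and -0.19 (mean -0.03 ± 0.22), and in RWR 0.17 and -0.11 (mean 0.03 ± 0.20). The probe was well above background in every channel, so a low signal does not limit this value.

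The AMPK subunits differed from each other in how well the chips of a pair agreed. Prkaa1 (probe A_44_P168265), which encodes the widely expressed α1 subunit, had sedentary signals of 98.7, 98.3, 94.5 and 95.5 on chips 1 to 4, a narrow range. The WR pool gave 115.1 in Cy5 and 87.8 in Cy3, and the RWR pool gave 111.0 in Cy5 and 77.5 in Cy3. In these signals, which are not scaled between chips, both running pools lay above the sedentary range in Cy5 and below it in Cy3. By percentile among all probes, only WR in Cy5 (58.7) and RWR in Cy3 (52.9) lay outside the sedentary range (54.6 to 57.3). The mean ratios were 0.03 ± 0.27 in WR and -0.03 ± 0.38 in RWR.

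Prkaa2 (probe A_44_P154112) encodes the α2 subunit, prominent in neurons and muscle. Its WR ratio was 0.05 on both chips and its RWR ratio was 0.06 on chip 3 and 0.05 on chip 4. The signals behind these were 324.7 in sedentary against 336.5 in WR on chip 1, 311.0 against 322.3 on chip 2, 347.1 in sedentary against 362.3 in RWR on chip 3 and 294.4 against 304.5 on chip 4. On each chip the running pool was the higher, by a fold of 1.04 in the mean of either pair. Of its 10 spots, 8, 10, 10 and 8 were above 0 on chips 1 to 4, with an SD between spots of 0.02 to 0.05. This was the member with the least dye difference. The error-model p-values were 0.755 to 0.796, and the same side of 0 on the WR chips was lost when the background was corrected by normexp (0.09 and -0.03) or left uncorrected (0.09 and -0.04).

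Ucp2 (probe A_44_P301608), the carrier in the inner membrane, had the highest RWR ratio of the set. Its sedentary signals were 307.3, 317.9, 325.3 and 326.1 on chips 1 to 4. The RWR signals were 405.5 in Cy5 on chip 3 and 355.0 in Cy3 on chip 4, both above all 4 sedentary values. The WR signals were 381.9 in Cy5 on chip 1, above all 4, and 308.2 in Cy3 on chip 2, within their range. The mean ratio was 0.22 ± 0.14 in RWR, a fold of 1.16, and 0.13 ± 0.25 in WR.

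By chip, the RWR ratio of Ucp2 was 0.32 on chip 3 and 0.12 on chip 4, with error-model p-values of 0.123 and 0.539. The WR ratio was 0.31 on chip 1 and -0.04 on chip 2, with p-values of 0.132 and 0.873. All used spots lay above 0 on chip 1 (10), chip 3 (10) and chip 4 (9), and on chip 2, 1 lay above and 8 below, with 1 spot dropped as an outlier on chips 2 and 4. The SD between spots was 0.03 to 0.04, whereas the error model gave each ratio an error of about 0.21. Spots of a chip share the same labelled pools, so their narrow spread says nothing of the rats. The lower of the 2 RWR ratios of Ucp2 was reached or exceeded on both RWR chips by 930 of 41007 probes (2.27%). Ucp2 was picked for this as the member with the highest RWR ratio, so the share is a description and not a test. The RWR mean was 0.19 after normexp and 0.17 without background correction, above 0 on both chips in each case.

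**Figure D3:**
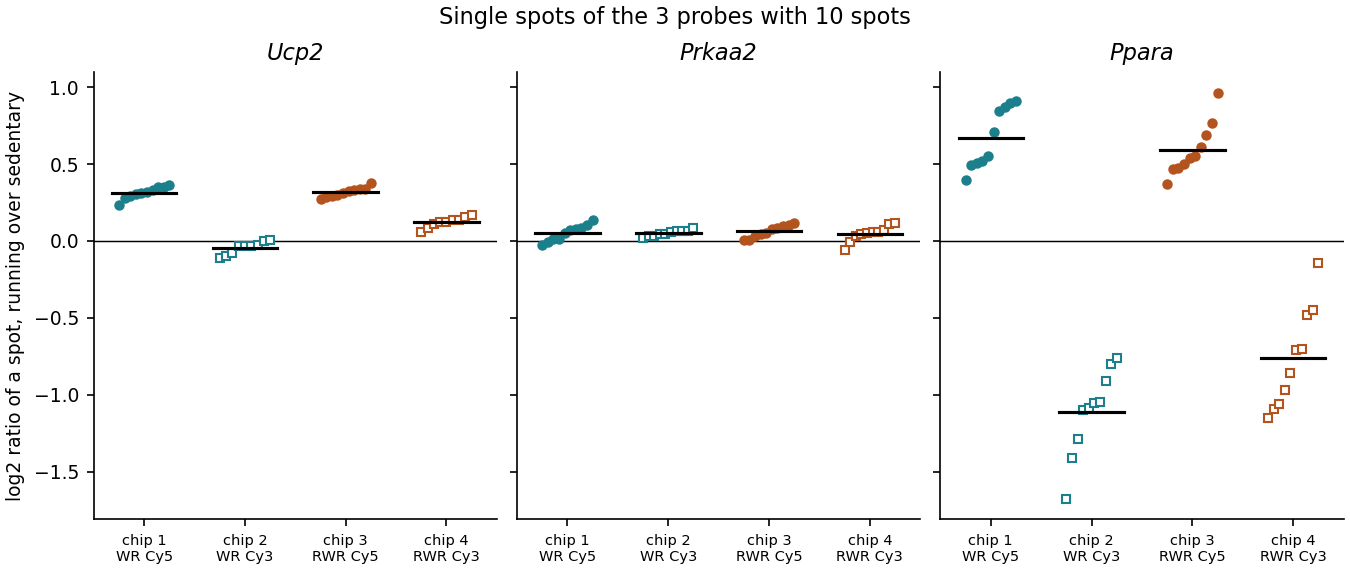
Log2 ratio of running over sedentary (vertical axis) of every used spot of the 3 probes printed 10 times, by chip, sorted within a chip; filled circles mark the running pool in Cy5, open squares in Cy3, and bars the chip mean. Spots of Ucp2 lie above 0 on chips 1, 3 and 4, those of Prkaa2 sit close to 0.05 on all 4 chips, and those of Ppara change side with the dye.

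Microglia, a cell type in which Ucp2 is also known to be expressed, were checked beside it. The 4 listed markers (Aif1, Cx3cr1, Csf1r and Itgam) were all well above background, with median log2 ratios of 0.04 in WR (range -0.11 to 0.07) and -0.01 in RWR (range -0.28 to 0.13). None of the 4 passed the selection. The part of these cells in the Ucp2 ratio was not tested. Among markers of tissues next to or outside the hippocampus, 1 of 4 for choroid plexus was selected as down-regulated in WR (Ttr, -0.86) and 1 of 3 for pituitary in RWR (Prl, whose RWR signal was not well above background on either chip). The median of the choroid plexus list was 0.03 in WR and that of the pituitary list -0.14 in RWR. Of the choroid plexus list, only Ttr and Folr1 were well above background in every channel of the WR chips. Both lay below 0 on both of these chips, Folr1 at -0.07 and -0.36. The mean WR ratios of Kl and Kcnj13, the other choroid plexus markers, were above 0. Ucp1, the uncoupling protein that defines brown fat, was at a mean signal of 4.09 and not well above background in any channel.

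For most members the dye difference was larger than the pool ratio. Within a comparison the dye difference rests on 1 chip per dye layout, so there chip and spot noise cannot be told apart from a dye effect. The dye difference of a probe, 0.5 of the gap between the chips of its pair, was towards Cy5 in 7 of 8 members in WR (median 0.20) and in 8 of 8 in RWR (median 0.18), beside 49.1% and 50.9% of all probes and medians of 0 and 0.0046. It was larger than the pool ratio in 7 members in WR, all but Prkaa2, and in 6 in RWR, all but Prkaa2 and Ucp2. Over all probes this held for 70.3% and 67.6%, so the members were not far from the rest of the chip in this respect. Chips 1 and 3 carry the dyes the same way, as do chips 2 and 4, so the WR and RWR dye differences rest on the same layout and are not counted as separate evidence. They were of unlike size for Ppard, at 0.76 in WR and 0.22 in RWR. Over all probes the ratios turned to running over sedentary correlated at r = -0.761 between chips 1 and 2 and at r = -0.686 between chips 3 and 4, but at r = 0.712 between chips 1 and 3 and r = 0.700 between chips 2 and 4. These are correlations across probes, which are not independent replicates.

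**Figure D4:**
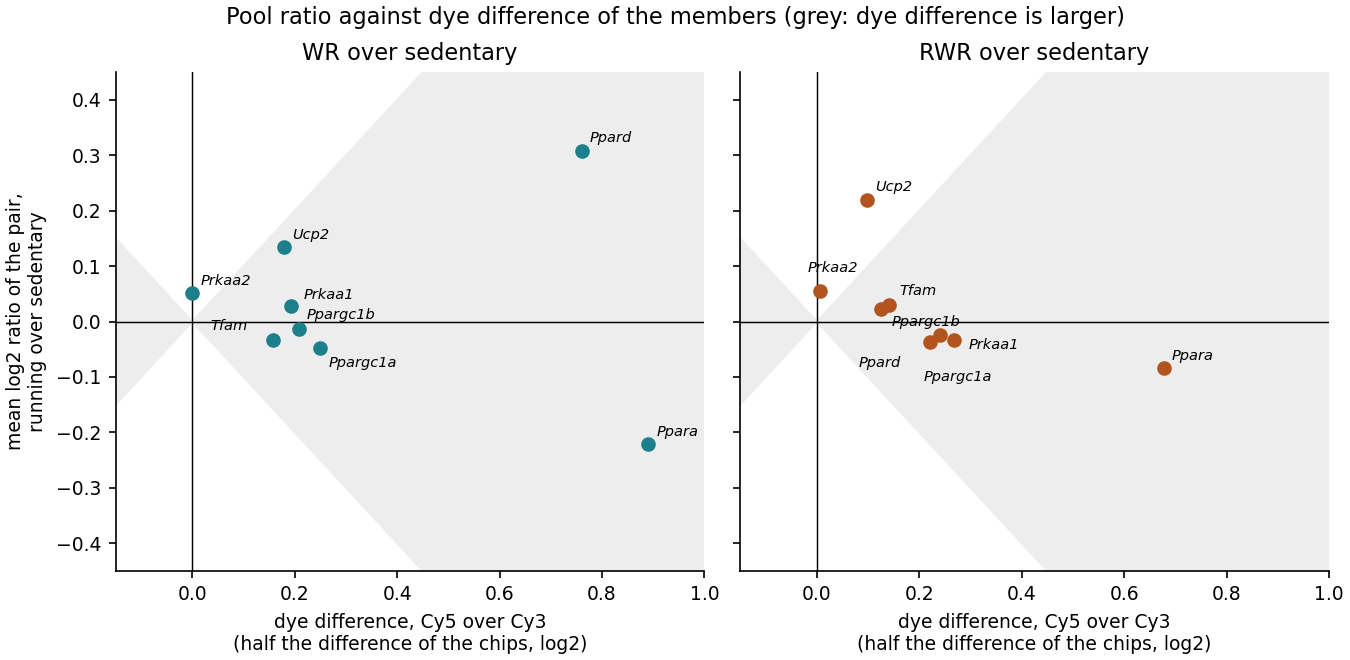
Mean log2 ratio of the pair (vertical axis) against the dye difference, Cy5 over Cy3, on the log2 scale (horizontal axis) for the 8 members in WR (left) and RWR (right); in the grey area the dye difference is the larger. All members but Prkaa2 in WR, and all but Prkaa2 and Ucp2 in RWR, lie in the grey area.

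RWR was set against WR within a dye, chip 3 against chip 1 and chip 4 against chip 2. This removes the dye effect of a probe only where it is of equal size in both pairs. The dye differences were of unlike size for Ppard (0.76 in WR and 0.22 in RWR) and Ppara (0.89 and 0.68). The differences for Ucp2 were 0.0037 in Cy5 and 0.17 in Cy3, with a mean of 0.09. For Prkaa2 they were 0.01 and -0.0031, and for Ppargc1a 0.01 and 0.03, so neither pool stood apart from the other by more than 0.05 there. Tfam gave 0.05 and 0.08. Ppara gave -0.08 and 0.35, and Ppard -0.89 and 0.19. Ppargc1b gave -0.05 and 0.12, and Prkaa1 0.01 and -0.14, so that the sign differed between the dyes for all 4 of these genes and for Prkaa2. The means over both dyes ranged from -0.35 for Ppard to 0.14 for Ppara, and no difference was tested. That of Ppard turned to 0.13 with normexp and to 0.0037 without background correction, and that of Ppara fell to 0.05 without correction.

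The wider pathway was followed in a list of 67 genes in 7 roles, of which 48 had a named probe. None of the named probes that stand for these 48 genes was selected in either direction in WR or RWR, also without the p-value filter. Probes whose accession did not resolve to a symbol are not covered by this count. The study lists Pdk4, by another probe that is not in this count, among its most repressed RWR transcripts. The probe that stands for Pdk4 here was not well above background in any channel, so it does not bear on that report. The list's median ratio on the log2 scale was -0.03 for WR and -0.01 for RWR. In WR, 4 of 48 lay above 0 on both chips and 14 below, beside 11.6% and 10.7% of all probes, and in RWR 3 lay above and 8 below, beside 12.4% and 14.8%. The list was well above background in every channel for 40 genes in WR and 41 in RWR.

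Partner receptors and transcription factors (12 of 14 measured) had medians of 0.06 in WR and 0.02 in RWR. The gene with the largest mean of the same sign on both chips, among those well above background, was in WR the retinoid receptor Rxrg, at -0.05 and -0.16, and in RWR the activity-dependent factor Mef2a, at 0.13 and 0.03. AMPK's other subunits and upstream kinases (7 of 10) had medians of 0.03 and 0.01. There the same choice gave Prkab2, a regulatory β subunit, in both comparisons. It stood at -0.25 and -0.12 in WR and at 0.15 and 0.16 in RWR. None of the 8 listed coregulators, which include Sirt1, had a named probe.

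Genes of mitochondrial DNA maintenance and transcription (7 of 10), which act beside Tfam, had medians of -0.05 in WR and -0.08 in RWR. In each comparison 3 of the 7 were below 0 on both chips, beside 10.7% of all probes in WR and 14.8% in RWR, and none was above. Tfb1m, a ribosomal RNA methyltransferase of the mitochondrion, was at -0.14 and -0.0022 in WR, and Mterf1, a transcription termination factor, was at -0.16 and -0.03 in RWR. PPAR targets of fat oxidation (11 of 11) had medians of -0.06 and -0.01. Angptl4, a secreted inhibitor of lipoprotein lipase, was at -0.10 and -0.28 in WR, and Cpt1a, which brings fatty acids into mitochondria, was at -0.16 and -0.01 in RWR. These values are all within the fold cutoffs.

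Fission, fusion and turnover genes (8 of 10) had medians of -0.03 in WR and 0.0047 in RWR. The fusion GTPase Mfn1 was at -0.05 on both WR chips and at -0.10 and -0.0053 on the RWR chips. Of the other uncoupling proteins (3 of 4), Ucp1 and Ucp3 were not well above background in any channel, and neither can be compared with Ucp2. Slc25a27 was well above background in every channel, with mean ratios of -0.0051 in WR and 0.0063 in RWR for its brightest probe. Its dimmer probe gave 0.16 and -0.07.

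**Figure D5:**
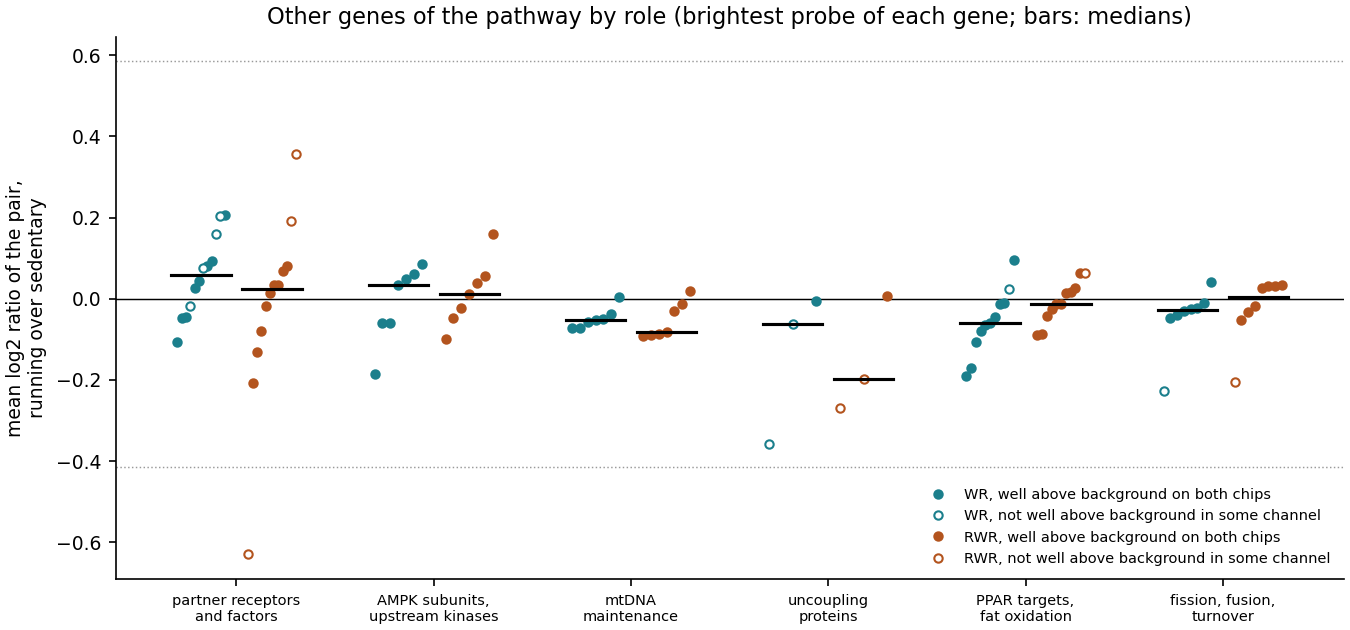
Mean log2 ratio of the pair (vertical axis) for the brightest probe of each of the 48 other pathway genes, by role (horizontal axis), with WR in teal, RWR in orange and bars for medians; open circles were not well above background in some channel, and dotted lines are 1.5-fold and 0.75-fold. Group medians lie between -0.20 and 0.06, and the widest values are open circles.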

How the data were processed

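The authors scanned the 2-colour rat 60-mer chips and processed them with Agilent Feature Extraction 11.0.1.1. The authors deposited for each spot a Cy3 and a Cy5 intensity, with the background subtracted and the dyes normalized by LOWESS, and the log10 ratio of Cy5 to Cy3, and the deposited p-value comes from the error models of the software for a single chip. The series matrix of the authors equals the log10 ratio of these signals.

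From these values, control spots and outlier spots (118 to 140 per chip) were left out, ratios were converted to log2 and turned to running over sedentary, and repeated spots were averaged per probe (p-values by their median). A probe counted as well above background on a chip if at least 0.5 of its spots were. The array was designed on rn4. Its accessions were matched without version to RefSeq names on GRCr8, which named 10768 probes.

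The dye labels gave the groups. Members and lists were chosen with earlier results of these data known. The text names all members and, by role group and comparison, the pathway gene with the largest mean of 1 sign on both chips, well above background in both dyes. Pdk4, Sirt1 and the other uncoupling proteins are named besides. A gene stands for its brightest probe. Markers and motifs came from the same lists.

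Alternatives were no p-value filter, p under 0.01 on at least 1 chip, 1.5-fold either way, normexp (offset 50) or no background correction with loess in limma 3.58.1 (R 4.3.3), median centring, a filter on dim probes, series matrix values, and each chip left out. Python 3.11.15 with pandas 2.3.3 was used. The number of chips limits the precision.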

Additional observations from a re-analysis of the deposited data

Results flagged for a closer look

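Among the 48 other pathway genes, 2 lay on opposite sides of sedentary in WR and RWR, on all 4 chips. Prkab2, a regulatory subunit of AMPK, was below sedentary on both WR chips and above it on both RWR chips, and RWR minus WR was 0.35 on the log2 scale (0.14 after normexp and 0.19 without background correction). Cpt1a, the carnitine palmitoyltransferase of the outer mitochondrial membrane, was above sedentary in WR (0.05 and 0.14) and below it in RWR (-0.16 and -0.01). Its RWR minus WR was -0.18 (-0.15 and -0.13 under the same alternatives). Opposite movement on all chips was also seen at 1580 of 41003 probes (3.85%), so 2 of 48 is near this background. The difference itself was not tested. No member showed it.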

How the results depend on the processing

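No member was selected in either comparison under any alternative that kept both chips of a pair. Under normexp, no background correction and median centring, the deposited p-values were kept and not recomputed. Those alternatives could therefore select only probes that already passed the p-value rule. With 1 chip of the WR pair left out, the count of members selected ranged from 0 to 1, the latter being Ppara as down-regulated on chip 2 alone, where its WR spots in Cy3 were mostly not well above background. In RWR it stayed at 0. The sign of the mean changed with background correction for 2 of 8 members in WR and 3 of 8 in RWR. Ppard in WR went from 0.31 to -0.14 with normexp and -0.01 without correction, and Prkaa1 from 0.03 to -0.07 with normexp. In RWR, Ppara went from -0.08 to 0.0049 and Prkaa1 from -0.03 to 0.01 with normexp, and Ppargc1a from -0.03 to 0.01 without correction. RWR minus WR of Ppard went from -0.35 to 0.13 with normexp and 0.0037 without correction, and that of Ppara from 0.14 to 0.18 and 0.05. Of the 16 such values of all members, 6 moved by more than the spread between the dyes, and they belonged to Tfam, Prkaa1, Prkaa2 and Ppargc1a. Over all probes, WR selected 87 up and 138 down without the p-value filter, 4 and 24 with p under 0.01 on at least 1 chip, 0 and 5 with normexp, and 0 and 6 without correction, beside 1 and 12. RWR selected 36 and 572, 5 and 70, 2 and 13, and 2 and 8, beside 4 and 20. No paired analysis was possible because each comparison holds 1 biological replicate, a pool against a pool, and no test was made.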
